A study of Homo sapiens with 12 samples.

Results

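HK-2 cells, an immortalised line from the proximal tubule of a human kidney, were compared at the far corners of a design with 2 factors. The comparison set 3 libraries of cells carrying an shRNA against FLCN and grown for 120 passages (long-term FLCN knockdown) against 3 libraries of cells carrying a control shRNA and harvested at fewer than 30 passages (short-term nontarget). The labels assign these 6 of the 12 libraries to the groups. The difference between them holds the loss of FLCN and the long culture together, and within these 6 libraries the effects of knockdown and of passage cannot be told apart. The other 6 libraries, short-term FLCN knockdown (FLCN shRNA, fewer than 30 passages) and long-term nontarget (control shRNA, 120 passages), were used for the shared estimate of the spread and as a second diagonal. All cells were grown in DMEM with serum, and polyA RNA was sequenced. The study describes its knockdown lines as stable clones, with passages counted after clonal selection, so a group may stand for the descendants of few cells. The labels call the replicates biological, but nothing says that they came from separate cultures, and the p-values measure only the spread between these samples.

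FLCN encodes folliculin, the tumour suppressor that is lost in Birt-Hogg-Dubé syndrome, a disorder with kidney tumours, lung cysts and skin lesions. Folliculin works with its partners FNIP1 and FNIP2 at the lysosome, where it acts on the Rag GTPases, and through them it controls how mTORC1 handles the transcription factors TFEB and TFE3. When folliculin is absent these factors tend to enter the nucleus and switch on genes of lysosomes and energy metabolism. The proximal tubule itself is an epithelium specialised for reabsorption, rich in mitochondria and membrane transporters.

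Between the long-term FLCN knockdown and the short-term nontarget libraries, 1952 of 13959 genes rose (14.0%) and 2392 fell (17.1%) in edgeR's quasi-likelihood test, with the adjusted p required to lie below 0.05. At least 2-fold changes were 413 rises (2.96%) and 969 falls (6.94%), so 70.1% of the larger changes were falls. The groups of 3 did not overlap in 6402 genes, 45.9% of those tested. RNA was measured in bulk, so fewer cells expressing a gene and less RNA per cell cannot be told apart. Across all genes tested the log2 fold change had a median of 0.0186. Levels below are CPM values, gene counts scaled to a common library total with the TMM factors of edgeR. A log2 fold change is always long-term FLCN knockdown minus short-term nontarget, fitted with a prior count of 2, which pulls the changes of genes with few counts towards 0.

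Library totals were 6284233 to 7279890 counts in short-term nontarget and 6031734 to 8991051 in long-term FLCN knockdown, within a range of 5825779 to 8991051 over the 12 libraries. Replicates differed by more than counting error, with a chi-square per degree of freedom of 2.07 to 11.9, and the biological coefficient of variation was 12%. In long-term FLCN knockdown replicate 3 stood apart, at 11.9 and 9.88 against 3.69 between replicates 1 and 2, and replicate 3 was also the most distant in each of the other 3 groups. Without replicate 3 of long-term FLCN knockdown, 1880 genes rose and 2372 fell.

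FLCN lay at chr17:17212212-17237188 (GRCh38, ENSG00000154803.12). Its level was 12.7, 16.7 and 16.5 CPM in the short-term nontarget libraries and 6.70, 6.31 and 7.97 CPM in the long-term FLCN knockdown libraries, so the groups did not overlap. FLCN fell by 1.10 on the log2 scale (SE 0.17, adjusted p = 8.12e-05 by edgeR), which left roughly 2.15-fold less RNA rather than none. The short-term knockdown libraries held 5.66 to 6.58 CPM and the long-term nontarget libraries 9.92 to 12.2 CPM. The annotation places the end of MPRIP over part of FLCN, and the library kit does not mark strand, so reads of the shared part cannot be told apart.

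In the FLCN module itself, 2 of 15 measured genes rose (13.3%, against 14.0% of all genes) and 3 fell (20%, against 17.1%), among them FLCN as the target of the shRNA, and without replicate 3 of long-term FLCN knockdown 1 rose and 5 fell. FNIP2, a partner of folliculin, was at 22, 23.8 and 20.7 CPM before and 11.9, 12 and 9.67 CPM after, a fall of 0.96 (log2, adjusted p = 9.65e-05 by edgeR). RRAGD, a Rag GTPase and a known target of TFEB and TFE3, went from 11.5 to 13.7 CPM down to 4.04 to 6.61 CPM, with a log2 fold change of -1.23. Both were higher in short-term knockdown libraries, at 41.9 to 54.5 CPM for FNIP2 and 21.8 to 31.4 CPM for RRAGD, than in either group of the main comparison. FNIP1, the other partner, was at 35.1 to 39.2 CPM and 26.5 to 36.8 CPM and did not pass the test (log2 fold change -0.18, adjusted p = 0.366 by edgeR). LAMTOR2, a subunit of the Ragulator scaffold, rose by 0.50.

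Among 46 measured genes of lysosomes and of the TFEB and TFE3 programme, 17 fell (37%, against 17.1% of all genes) and 4 rose (8.7%, against 14.0%). The median log2 fold change was -0.26 against 0.02 for all genes. FLCN, FNIP2 and RRAGD belong to this list too and are among its falls. CTSL, the lysosomal protease cathepsin L, showed the largest fall, from 81.1, 89.8 and 82.0 CPM to 18.5, 16.9 and 16.5 CPM (log2 fold change -2.26, SE 0.146, adjusted p = 4.62e-09 by edgeR). The intermediate groups lay between, at 32 to 48.8 CPM in short-term knockdown and 34.5 to 44.3 CPM in long-term nontarget. GPNMB, a glycoprotein used as a readout of TFEB and TFE3 activity, was at 5.16 to 7.07 CPM before and 9.33 to 12.5 CPM after, and its call (adjusted p = 0.0258 by edgeR) was lost when any of 4 of the 6 libraries was left out. In short-term knockdown libraries GPNMB was at 32 to 69.0 CPM, and these did not overlap the long-term knockdown libraries. SQSTM1, the autophagy receptor p62, rose by 0.60, and its 40 nearest tested genes had a median of 0.56. Outside the shifted stretches of chromosomes described further on, 16 genes of this list fell and 2 rose.

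PTPRN showed the largest rise by fitted log2 fold change among protein-coding genes with separate groups and a mean of at least 50 counts. It encodes a phosphatase-like protein of secretory vesicles and lies at chr2:219289623-219309648. No count was found in the 3 short-term nontarget libraries, while the long-term FLCN knockdown libraries held 22.2, 13.8 and 21.7 CPM. With 414 counts against 0, and a floor of 3 counts over the group, PTPRN was at least 131-fold higher (adjusted p = 1.17e-07 by edgeR). It was already at 5.69 to 12.9 CPM in short-term knockdown libraries and at 0 to 0.134 CPM in long-term nontarget libraries.

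MLANA, which encodes a melanosome protein and is best known as a melanocyte marker, had 525 counts against 3, a ratio of counts per total of 166 with a 95% interval of 56.5 to 808 that covers counting error only. Its levels were 28.3, 24.2 and 19.5 CPM after long-term knockdown and at most 0.465 CPM in every other group. MLANA lies within KIAA2026, whose own change did not pass the test (log2 fold change -0.39, adjusted p = 0.11 by edgeR). Of the other melanocyte markers, TYR, SOX10 and S100B had no counts in the 6 libraries, and PMEL was at 4.16 to 7.90 CPM in all 6. The summed level of the 8 markers was 85.3 to 90.8 CPM before and 92.7 to 97.7 CPM after. Most of this sum was MITF, which averaged 80.5 CPM before and 66 CPM after, while MLANA averaged 0.143 and 24 CPM.

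EPHA3, an ephrin receptor, rose from 0.137, 0.152 and 0.314 CPM to 28.3, 31.8 and 19.7 CPM, and the 2 intermediate groups stayed below 0.8 CPM. EDIL3, a secreted ligand of integrins, went from 5.74, 4.71 and 2.99 CPM to 200, 177 and 178 CPM (log2 fold change 5.27, SE 0.243, adjusted p = 2.60e-10 by edgeR). The highest value in the other 2 groups for EDIL3 was 11 CPM. CDH6, a cadherin of the embryonic kidney and proximal tubule, was already well expressed and reached 1700, 1740 and 1410 CPM from 51.4, 64.7 and 87.0 CPM (log2 fold change 4.58, SE 0.235, adjusted p = 1.66e-09 by edgeR). For CDH6 the intermediate groups were 96.6 to 176 CPM and 208 to 295 CPM, far short of the long-term knockdown libraries, and no group overlapped another.

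COL11A1, a fibrillar collagen chain, followed another course. It rose from 0.820, 0.304 and 0.628 CPM to 50.6, 41.7 and 44.6 CPM, but the short-term knockdown libraries were higher still at 131, 129 and 113 CPM, and the long-term nontarget libraries were at 0 to 0.906 CPM. The remaining largest rises were CNTN6, GNAO1, CRTAC1, PTK7, FHDC1 and EMILIN2, which reached 15.8 to 52.4 CPM from at most 4.71 CPM. CNTN6 encodes a contactin of neurons, GNAO1 a G protein subunit and PTK7 a receptor-like protein of planar cell polarity.

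**Figure D1:**
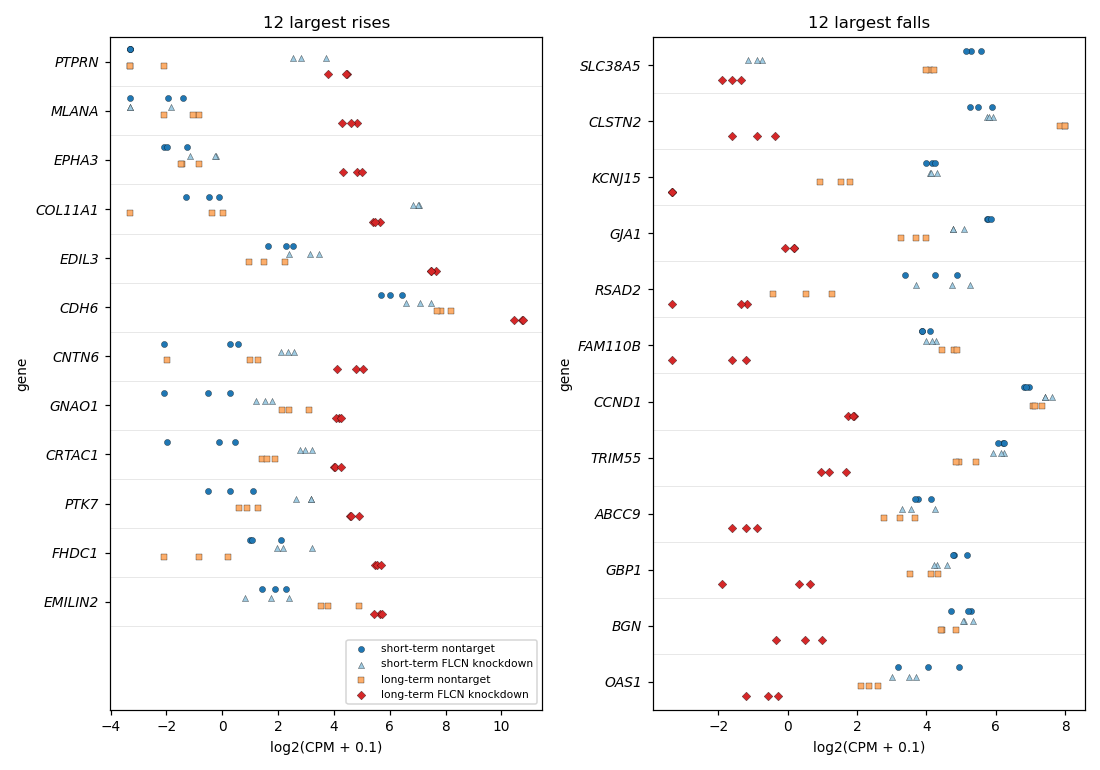
Levels of the 12 protein-coding genes with the largest rises (left) and falls (right), as log2(CPM + 0.1) on the x axis, with a point for each of the 12 libraries coloured by group. Points at the far left edge are libraries with no count, as for PTPRN in short-term nontarget and KCNJ15 in long-term FLCN knockdown cells. The 3 red points of each gene lie outside the range of the 3 dark blue ones, as the rule for choosing these genes required.

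KCNJ15, a potassium channel, was among the largest falls. It held 17.8, 15.9 and 18.9 CPM in short-term nontarget libraries and no count in any of the 3 long-term knockdown libraries. With 355 counts against 0, KCNJ15 was at least 125-fold lower (adjusted p = 1.09e-09 by edgeR). Its level was 17.1 to 19.6 CPM in short-term knockdown and 1.81 to 3.35 CPM in long-term nontarget libraries. In all, 31 tested genes had no counts after long-term knockdown, 25 of them called lower, and 7 had none in the short-term nontarget libraries, 4 of them called higher.

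SLC38A5, an amino acid transporter, went from 47.2, 38.9 and 35 CPM to 0.231, 0.293 and 0.17 CPM (log2 fold change -6.29, SE 0.227, adjusted p = 5.34e-12 by edgeR). It was also scarce in short-term knockdown libraries, at 0.354 to 0.506 CPM, and was present in long-term nontarget libraries at 15.8 to 18.4 CPM. CLSTN2, a calsyntenin of the cell surface, behaved differently, at 38.3 to 59.2 CPM before and 0.231 to 0.678 CPM after, with 54 to 60.2 CPM in short-term knockdown and 232 to 257 CPM in long-term nontarget libraries. GJA1, the gap junction protein connexin 43, fell from 53.3, 54.2 and 58.3 CPM to 1.04, 1.03 and 0.848 CPM, with intermediate values of 27.1 to 33.9 CPM and 9.57 to 15.7 CPM. TRIM55, FAM110B, ABCC9 and BGN completed the largest falls outside the interferon response and the cell cycle, each to at most 3.08 CPM.

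CCND1 encodes cyclin D1, which drives cells from G1 towards S phase, and lies at chr11:69641087-69654474. Its levels were 112, 124 and 117 CPM in short-term nontarget and 3.24, 3.67 and 3.56 CPM in long-term FLCN knockdown libraries. CCND1 fell by 4.97 on the log2 scale (SE 0.138, adjusted p = 1.90e-13 by edgeR), a 31.4-fold difference with little spread in either group. Neither factor alone came with such a level, since short-term knockdown libraries held 171, 171 and 197 CPM and long-term nontarget libraries 134, 161 and 141 CPM.

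Of 30 measured genes of the G1/S transition, 9 rose (30%, against 14.0% of all genes) and 6 fell (20%, against 17.1%). CCND3, which encodes cyclin D3, fell by 0.73, and CDKN1A, the inhibitor p21, went from 87.6, 79.0 and 78.4 CPM to 29.4, 27.1 and 20.5 CPM (log2 fold change -1.65, adjusted p = 4.75e-06 by edgeR). CCNE1, which encodes cyclin E1, fell by 0.54. CDKN2C, the CDK4 and CDK6 inhibitor p18, rose from 25.9 to 29.4 CPM up to 69.8 to 89.2 CPM, and E2F2, an activator of S phase genes, rose by 1.13. RBL1, the pocket protein p107, was at 40.7 to 55.8 CPM and 54.6 to 64 CPM and did not pass the test (adjusted p = 0.0677 by edgeR), and neither did JUN (adjusted p = 0.206). FOXN3, a forkhead repressor, fell by 2.48 on chromosome 14, where its 40 nearest tested genes had a median of -0.62.

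Of 39 measured replication genes 16 rose (41%, against 14.0% of all genes) and 3 fell (7.69%, against 17.1%), with a median of 0.22. But 7 and 9 rose without replicates 1 and 2 of short-term nontarget, and 9 and 10 without replicates 1 and 2 of long-term FLCN knockdown. Without replicate 3 of short-term nontarget 1 fell. TK1, thymidine kinase, went from 332, 310 and 297 CPM to 590, 532 and 771 CPM, and RPA1, a subunit of the single-strand binding complex, from 200 to 216 CPM up to 368 to 405 CPM. Both lie on chromosome 17 among genes that rose together, with neighbourhood medians of 0.38 and 0.59. RFC4 and RPA3 rose by 0.73 and 0.62 with neighbourhood medians near 0. In the mitosis list 8 of 35 genes rose and 1 fell, and 4 of the 31 outside the shifted stretches rose, where 1305 of all 12232 genes rose. Without replicate 1 or 2 of short-term nontarget, or replicate 1 of long-term FLCN knockdown, 5 mitosis genes rose. MCM2, MCM3, CDK1 and CCNB1 did not pass the test, with log2 fold changes of 0.14, 0.01, -0.12 and 0.16.

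The most uniform change was a fall of interferon-stimulated genes. These genes encode antiviral effectors such as the OAS enzymes and IFIT proteins, and they are switched on when interferon-activated transcription factors bind a short element in their promoters. Of 34 measured genes on the list 31 fell, 27 of them at least 2-fold, 1 rose and 2 did not pass the test. The median log2 fold change was -1.80, and 28 of the 31 genes outside the shifted stretches fell. The list was written with earlier results of these data known.

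Promoter sequences were searched for such an element. RefSeq promoters (GRCh38.p14, 250 bases before to 50 after the start) were matched to 28 of the 34 genes (82.4%), and the letters GAAA, any 2 bases, GAAA stood on either strand in 17 of them (60.7%). Among all protein-coding genes tested, 9956 of 12121 had a promoter (82.1%), and 271 held the letters (2.72%). This motif was chosen after the fall of the list had been seen, and a match is a description of the sequence and not evidence of binding. The following 4 promoters, chosen to show 1 or 2 matches on either strand in genes with large falls, have the matched letters in capitals, with GAAA turned into TTTC where the match lies on the other strand.
MX1, plus strand, chr21:41420308-41420607: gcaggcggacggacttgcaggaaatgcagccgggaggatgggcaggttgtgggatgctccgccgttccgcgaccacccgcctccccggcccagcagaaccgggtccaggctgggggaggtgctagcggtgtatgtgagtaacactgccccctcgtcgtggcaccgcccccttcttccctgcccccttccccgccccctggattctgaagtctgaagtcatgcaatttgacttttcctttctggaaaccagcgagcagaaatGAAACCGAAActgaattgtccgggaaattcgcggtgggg
IFI44, plus strand, chr1:78649539-78649838: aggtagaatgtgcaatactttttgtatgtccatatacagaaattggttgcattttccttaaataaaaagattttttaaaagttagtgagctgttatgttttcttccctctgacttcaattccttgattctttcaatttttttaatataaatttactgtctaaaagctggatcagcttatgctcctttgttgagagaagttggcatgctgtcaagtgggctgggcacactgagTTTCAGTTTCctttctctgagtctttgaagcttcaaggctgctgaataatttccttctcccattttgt
IFIT1, plus strand, chr10:89392373-89392672: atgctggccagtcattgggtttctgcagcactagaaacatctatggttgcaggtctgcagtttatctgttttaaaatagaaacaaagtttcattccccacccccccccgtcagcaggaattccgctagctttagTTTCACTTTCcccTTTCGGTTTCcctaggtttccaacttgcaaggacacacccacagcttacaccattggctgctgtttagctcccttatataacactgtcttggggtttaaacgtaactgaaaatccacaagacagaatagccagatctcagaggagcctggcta
OAS3, plus strand, chr12:112938224-112938523: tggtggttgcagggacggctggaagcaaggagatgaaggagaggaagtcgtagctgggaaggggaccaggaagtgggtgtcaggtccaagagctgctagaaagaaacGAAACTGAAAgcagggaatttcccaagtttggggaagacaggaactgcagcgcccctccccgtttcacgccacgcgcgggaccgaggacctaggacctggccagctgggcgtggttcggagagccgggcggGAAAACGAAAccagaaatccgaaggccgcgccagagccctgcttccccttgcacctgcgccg
The matches begin at base 12 after the start in MX1, at base -18 in IFI44, at bases -116 and -103 in IFIT1 and at bases -143 and -12 in OAS3.

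The 4 genes fell to different depths. MX1, a GTPase that traps viral particles, was at 6.42, 12.5 and 2.99 CPM in the short-term nontarget libraries and 1.04, 0.147 and 0.509 CPM in the long-term FLCN knockdown libraries (log2 fold change -3.09, adjusted p = 0.000303 by edgeR). IFI44, a cytoplasmic protein of the interferon response, went from 38.4, 46.8 and 22.8 CPM to 3.35, 3.67 and 2.71 CPM, a change of -3.35. IFIT1, which binds foreign RNA caps, went from 94.0, 119 and 48.4 CPM to 14.9, 20 and 15.9 CPM. OAS3, an oligoadenylate synthetase, went from 171, 230 and 130 CPM to 45.3, 43.6 and 46.8 CPM. In each of the 4 the groups did not overlap, and replicate 3 of short-term nontarget was the lowest of its group.

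RSAD2, the antiviral enzyme viperin, showed the largest fitted fall of the list, from 18.9, 29.3 and 10.4 CPM to 0.347, 0.293 and 0 CPM (log2 fold change -5.25, SE 0.597, adjusted p = 7.41e-06 by edgeR). RSAD2 overlaps its neighbour CMPK2, which fell by 3.63, and reads of the shared part cannot be told apart. OAS1 fell by 4.48, and OAS2 had 139 counts before against 1 after, a ratio of 147 (95% interval 25.9 to 5830, counting error only). For RSAD2 the short-term knockdown libraries held 12.9 to 38 CPM and the long-term nontarget libraries 0.647 to 2.32 CPM. GBP1, a guanylate-binding protein outside the list, fell by 4.59.

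STAT2, a transcription factor of the pathway, fell by 0.73, and the regulator IRF1 and IFI35 did not pass the test, with changes of 0.10 and -0.16. These 3 genes were singled out after their values were seen. Markers of immune cells were close to absent. Of 13 markers 7 had no counts in the 6 libraries, and their summed level was 0.911 to 1.41 CPM before and 0.693 to 1.19 CPM after.

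**Figure D2:**
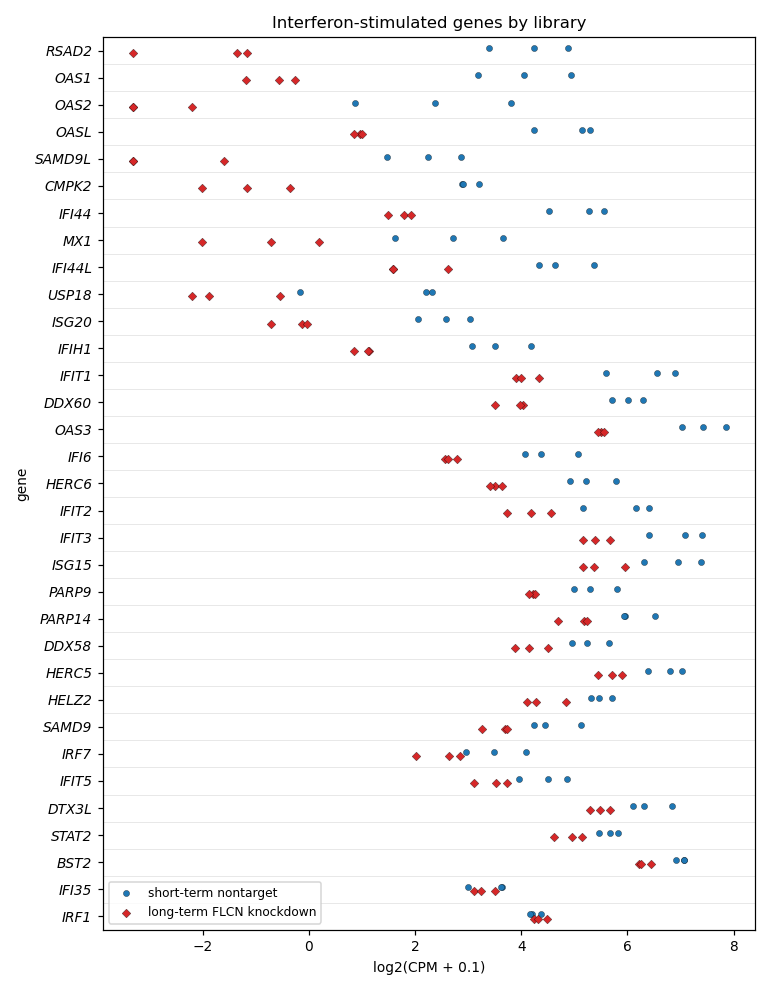
Interferon-stimulated genes that fell or did not pass the test, ordered by their log2 fold change, with log2(CPM + 0.1) on the x axis and a point for each of the 3 short-term nontarget and 3 long-term FLCN knockdown libraries. The red points lie to the left of the blue ones for every gene shown except IFI35 and IRF1, whose groups overlap, and OAS2, RSAD2 and SAMD9L reach the left edge where no count was found.

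Antigen presentation genes moved less. Of 18 measured genes 6 fell and 2 rose, with 1 rise left when any library other than replicate 3 of long-term FLCN knockdown was omitted. TAP1, a peptide transporter, went from 44, 49.5 and 38.2 CPM to 13.1, 14.8 and 14.8 CPM, and HLA-B and PSMB8 fell by 1.07 and 1.05. Among 25 cytokine and NF-kB genes 10 fell and 5 rose. IL18 fell by 2.67 and the complement component C3 by 2.16, while the chemokine CXCL5 rose from 28.6 to 35.3 CPM up to 119 to 134 CPM.

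Epithelial junction and keratin genes fell in the main. Of 28 measured genes 16 fell and 3 rose, with a median of -0.66, and 15 of 27 outside the shifted stretches fell. CLDN1, a tight junction claudin, went from 278, 278 and 258 CPM to 35.9, 36.2 and 33.8 CPM (log2 fold change -2.93, SE 0.115, adjusted p = 1.11e-11 by edgeR). MAL2, a protein of apical transport, the membrane protease PRSS8 and the keratin KRT19 had log2 fold changes of -3.17, -3.73 and -2.92. CLDN1 and MAL2 were at similar levels in the other 3 groups, at 188 CPM or more and 127 CPM or more. KRT19 was also low in long-term nontarget libraries, at 4.02 to 6.66 CPM. EPCAM fell by 0.77 within a stretch of chromosome 2 whose neighbouring genes had a median of 0.52. The 3 genes that rose, named after their values were seen, were CLDN2, MARVELD2 and PKP3, and CLDN2, the pore-forming claudin of the proximal tubule, went from 14.1 to 17.9 CPM up to 62.1 to 64.9 CPM.

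Mesenchymal genes also fell more often than they rose. Of 24 measured mesenchymal genes 10 fell and 3 rose. FN1, fibronectin, went from 1370, 1450 and 1950 CPM to 313, 288 and 251 CPM (log2 fold change -2.48, SE 0.163, adjusted p = 9.53e-09 by edgeR), although the short-term knockdown libraries were higher than the nontarget ones at 2250 to 2710 CPM. TAGLN, an actin-binding protein of smooth muscle, fell by 2.22 and ACTA2 by 2.75. VIM and CDH2 did not pass the test, with changes of -0.03 and 0.10 at levels of 191 CPM or more in the 6 libraries.

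Collagen genes split sharply. Of 20 measured, 10 fell, all of them at least 2-fold, and 4 rose. COL22A1 had 115 counts before and 2 after, a ratio of 60.6 (95% interval 16.4 to 507, counting error only), and COL8A2 and COL14A1 had log2 fold changes of -3.35 and -3.07. COL5A1, a chain that assembles with that of COL11A1, rose from 17.9, 19.4 and 29.7 CPM to 200, 147 and 215 CPM. Like COL11A1 it was high in short-term knockdown libraries, at 138 to 251 CPM, and near 0 in long-term nontarget libraries, at 0 to 1.04 CPM. With only genes averaging 10 CPM or more, 6 collagen genes fell.

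Cadherins, calsyntenins, ephrin receptors and guidance molecules held changes in both directions. Of 44 measured 17 rose, 11 of them at least 2-fold, and 10 fell, 7 of them at least 2-fold. CDH6 and EPHA3 led the rises and CLSTN2 the falls, while CDH4 had 72 counts before and 1 after and the P-cadherin gene CDH3 fell by 2.45. With genes of at least 10 CPM only, 11 rose and 6 fell.

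Several growth factor ligands fell. Of 37 measured TGF-beta and BMP genes 11 fell (29.7%, against 17.1% of all genes) and 6 rose (16.2%, against 14.0%). Outside the shifted stretches 7 of 31 fell and 6 rose, against 1977 and 1305 of all 12232 genes there. GREM1, a secreted BMP antagonist, went from 1120, 1070 and 1040 CPM to 121, 101 and 120 CPM (log2 fold change -3.23, SE 0.102, adjusted p = 8.37e-13 by edgeR). Long-term nontarget libraries were intermediate for GREM1, at 410 to 439 CPM, and short-term knockdown libraries at 643 to 719 CPM. The ligands BMP2, BMP4 and GDF6 fell by 2.56, 1.95 and 2.20, whereas TGFB1 rose by 1.11 and TGFB2 fell by 0.70. Of 20 EGF and IGF genes 9 fell and 4 rose. AREG and TGFA, ligands of the EGF receptor, fell by 1.84 and 1.40, and TGFA did so within the stretch of chromosome 2 whose genes rose. For TGFA the short-term knockdown libraries were highest, at 34.5 to 39.2 CPM, against 16.1 to 17.3 CPM in short-term nontarget and 5.20 to 6.95 CPM in long-term knockdown libraries.

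In the WNT list 6 of 29 genes rose (20.7%, against 14.0% of all genes) and 5 fell (17.2%, against 17.1%). Without replicate 3 of long-term FLCN knockdown 8 fell. The transcription factors LEF1 and TCF7L1 rose by 2.39 and 2.64 and the receptors ROR1 and FZD1 fell by 1.63 and 1.32. LEF1 reached only 3.47 to 4.26 CPM. TCF7L1 lies in the stretch of chromosome 2 whose genes rose, with a neighbourhood median of 0.52. It reached 7.97 to 10.3 CPM, with 6.58 to 9.36 CPM in short-term knockdown and 6.43 to 11.5 CPM in long-term nontarget libraries. Of 27 HOX genes 9 rose and 3 fell, and 1 fell without replicate 1 of long-term FLCN knockdown. HOXA5 went from 21.5, 22.3 and 26.4 CPM to 74.9, 70.0 and 87.2 CPM, and HOXB13, with 83 counts before and 0 after, was at least 29.2-fold lower.

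Every respiratory chain gene that passed the test rose. Of 54 measured nuclear-encoded subunits 22 rose (40.7%, against 14.0% of all genes) and 0 fell by edgeR, with a median of 0.31. Without adjustment 31 were higher and 0 lower at p below 0.05, and DESeq2 also called 22 higher and 0 lower. Outside the shifted stretches 19 of 51 rose. SDHA, a subunit of complex II, went from 168, 163 and 185 CPM to 346, 355 and 394 CPM (log2 fold change 1.08, SE 0.0911, adjusted p = 1.04e-07 by edgeR), but it lies on the short arm of chromosome 5, where its nearest genes had a median of 0.86. COX7B, a subunit of complex IV with a neighbourhood median of -0.05, rose by 0.66, and its call was lost without replicate 1 of long-term FLCN knockdown. PPARGC1A, the coactivator PGC-1 alpha, rose from 23.6, 21.1 and 32.4 CPM to 56.4, 70.4 and 52.4 CPM (log2 fold change 1.21, adjusted p = 2.09e-05 by edgeR). Of 30 genes of the PGC-1 list 9 rose and 2 fell, among them CPT1A, the gate of fatty acid oxidation, with 131 counts before and 2 after, a ratio of 69.1 (95% interval 18.7 to 576, counting error only).

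Glycolysis and hypoxia genes also leaned upward, with 16 of 42 higher and 6 lower. DDIT4 and BHLHE40 rose by 1.29 and 1.09, while ANGPTL4 fell from 16.5, 14.7 and 13.4 CPM to 0.693, 0.880 and 3.22 CPM and ADM by 2.99. HIF1A, on chromosome 14, fell by 0.41 where its nearest genes had a median of -0.21, and EPAS1 did not pass the test (adjusted p = 0.59 by edgeR). In the sterol list 8 of 33 genes rose and 4 fell (2 without replicate 2 of short-term nontarget), with SREBF1 higher by 1.01 and ACLY lower by 1.35. Of 41 mTOR regulators 4 rose (9.76%, against 14.0% of all genes) and 6 fell (14.6%, against 17.1%). Outside the shifted stretches 2 of 38 rose and 6 fell. DEPTOR, an inhibitor of mTOR, fell from 19.3, 21.6 and 22.8 CPM to 4.28, 2.93 and 2.37 CPM, and RICTOR rose by 1.05 on the short arm of chromosome 5, where the nearest genes had a median of 0.66. MTOR and RPTOR did not pass the test. Shares in 3 further lists are set against the same 14.0% and 17.1% of all genes. DNA repair genes, 40 in number, had 9 rises (22.5%) and 2 falls (5%), of which 4 and 2 lay outside the shifted stretches. Their falls numbered 0 to 3 when 1 library was left out. The 35 genes of ATF4 and ER stress had 5 rises and 5 falls (14.3% each, 2 falls without replicate 3 of short-term nontarget). The 26 genes of the NRF2 response had 6 rises (23.1%) and 5 falls (19.2%).

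The labelled cell type was checked against 41 genes of the proximal tubule. In the 6 libraries 12 of them had no counts, among them LRP2, HNF4A, SLC22A6 and SLC5A1, and 17 were high enough to test. PAX8 and HAVCR1 were present in every group, at 123 CPM or more in each library. The summed level was 829 to 878 CPM before and 2350 to 2640 CPM after, and most of the increase came from CDH6. Of the 17 tested 6 rose and 4 fell, but 2 fell without replicate 3 of short-term nontarget or replicate 2 of long-term FLCN knockdown. The kidney cadherin CDH16 and the transcription factor LHX1 rose by 2.15 and 1.31, and DPP4, a brush border peptidase, fell from 106, 118 and 97.4 CPM to 27.2, 26.4 and 24.4 CPM. Summed levels of the markers of 4 other cell types of the kidney overlapped between the groups or were lower after long-term knockdown, although RGS5, a pericyte gene, rose from 11.9 to 19.7 CPM on average, a call lost without replicate 1 of short-term nontarget. The sums were 5.47 to 6.53 CPM before and 4.24 to 6.16 CPM after for the distal tubule, 217 to 246 and 140 to 165 for podocytes, 350 to 406 and 288 to 366 for fibroblasts, and 4.56 to 6.38 and 0.231 to 0.848 for endothelium. Defining markers such as UMOD, NPHS1 and KDR had no counts in the 6 libraries.

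Among 22 developmental transcription factors of the kidney 6 rose and 3 fell. SIX2 and SOX9 rose by 2.62 and 2.58. In the list of amino acid and zinc transporters and metallothioneins 15 of 50 fell and 8 rose, but 8 fell without replicate 3 of short-term nontarget. The glutamate transporter SLC1A3 went from 9.29, 7.44 and 9.11 CPM to 0.347, 0 and 0.339 CPM. The zinc transporter SLC39A1 fell by 2.62.

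Stretches of neighbouring genes were described by chromosome position. They were defined as runs of at least 30 tested genes for which the 40 nearest genes had a median log2 fold change beyond 0.3 in size. The rule was set after the data were seen, so the stretches are described without a test, and DNA was not measured. Since the rule used these fold changes, a higher share of calls inside the stretches was fixed by the choice and nothing is read from it. The 15 stretches held 1727 genes, 12.4% of those tested and 24.4% of those called. Inside them 61.5% of genes were called, 647 higher and 415 lower, against 26.8% outside, where 1305 rose and 1977 fell. At least 2-fold changes comprised 110 rises and 134 falls inside and 303 rises and 835 falls outside.

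Chromosome 14 had far more falls than rises. Of 473 tested genes 266 fell (56.2%) and 7 rose, with a median of -0.50. It held stretches of 179 genes (chr14:20256558-54441431) and 250 genes (chr14:61715558-105530202), each with a median of -0.55. For the second stretch, the median over genes of at least 10 CPM, measured as log2(CPM + 1) from the short-term nontarget mean, was -0.58 to -0.52 in long-term knockdown libraries, -0.35 to -0.32 in long-term nontarget libraries and -0.05 to -0.03 in short-term knockdown libraries.

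The distal end of chromosome 4 was lowest in the long-term knockdown libraries. Its stretch of 62 genes (chr4:163110073-189963204) had a median of -0.81, with 39 genes lower and 1 higher. By library the medians were -1.0 to -0.75 in long-term knockdown against -0.24 to -0.05 in short-term knockdown and -0.12 to 0.06 in long-term nontarget.

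Rises covered both ends of chromosomes 5 and 17, much of chromosome 2 and parts of chromosome 3. On the short arm of chromosome 5 (chr5:92151-43603230) 74 of 101 genes rose, with a median of 0.72, and the other 3 groups all lay above the short-term nontarget mean, at 0.30 to 0.39 in short-term knockdown, 0.36 to 0.59 in long-term nontarget and 0.58 to 0.73 in long-term knockdown libraries. At the other end (chr5:154857553-181272307) 76 of 122 genes rose, and here the medians were 0.49 to 0.50 in short-term knockdown and 0.54 to 0.60 in long-term knockdown but -0.02 to 0.04 in long-term nontarget libraries. The stretch of chromosome 2 (chr2:217730-95184317) held 392 genes, of which 218 rose and 22 fell, with 0.25 to 0.31 in short-term and 0.41 to 0.57 in long-term knockdown libraries. On chromosome 17 the 131 genes of chr17:212389-7627876 and the 231 genes of chr17:59952240-83095119 had medians of 0.53 and 0.58, with values in long-term knockdown libraries of 0.51 to 0.62 and 0.41 to 0.61 and of at most 0.23 in any other library. The 3 stretches of chromosome 3, with 40, 33 and 36 genes and medians of 0.45, 0.44 and 0.53, were likewise seen in the long-term knockdown libraries.

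Chromosome 19 held 4 shorter stretches of lower genes, of 31, 35, 37 and 47 genes, in which 20, 27, 32 and 41 were zinc finger genes, a large family of mostly repressive DNA-binding proteins that lie in clusters there. Of 221 tested zinc finger genes on chromosome 19 63 fell and 2 rose, with a median of -0.39. On the other chromosomes 30 of 270 fell and 18 rose, with a median of -0.07, and of the other genes of chromosome 19 104 of 788 fell and 71 rose. Genes of this family resemble one another in sequence, and how far they share reads was not measured. How shared reads were counted is not given in the sources used here. Medians by library rest on only 5, 7, 14 and 18 genes of at least 10 CPM in these 4 stretches. In all 4 the short-term knockdown libraries were below the short-term nontarget mean as well, at -0.57 to -0.10. The long-term nontarget libraries lay at -0.25 to 0.22. In the first stretch they were at -0.25 to 0.13 and overlapped the long-term knockdown libraries, at -0.42 to -0.21. Over all genes of chromosome 19 the median was 0.27 in replicate 3 of long-term knockdown, and 0.17 and 0.22 in replicate 3 of the 2 intermediate groups, against -0.13 to 0.07 in the other libraries.

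The second diagonal, long-term nontarget minus short-term FLCN knockdown, uses none of the 6 libraries of the main comparison, although both come from the same fit. A gene that responds to culture time alone should move the same way on both diagonals, and a gene that responds to FLCN knockdown alone should move in opposite ways. On this diagonal 273 genes were at least 2-fold higher (1.96%) and 370 lower (2.65%). Of the 413 genes at least 2-fold higher in the main comparison, 26 (6.30%) were also higher on the second diagonal and 68 (16.5%) lower. Of the 969 lower, 97 (10.0%) were also lower and 102 (10.5%) higher. In all 123 genes moved in the same and 170 in the opposite direction, and the other 1089 genes of the main comparison did not reach a 2-fold call on the second diagonal.

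Genes with large changes in the same direction were RSAD2, KCNJ15, KRT19, FSTL1 and EMILIN2. FSTL1, a secreted glycoprotein, was at 45.8, 41.8 and 52.2 CPM in short-term nontarget and 74.5 to 79.5 CPM in short-term knockdown, and at 14.4 to 16.8 CPM in long-term nontarget and 5.14 to 7.97 CPM in long-term knockdown libraries. EMILIN2, an extracellular glycoprotein, rose in both aged groups, to 42.7 to 52.4 CPM with and 11.4 to 29.9 CPM without knockdown, from at most 5.13 CPM. Large changes in opposite directions were seen in PTPRN, COL11A1, SLC38A5, UNC13A and COL5A1. UNC13A, a protein of vesicle priming in neurons, was at 16.7 to 17.9 and 11.4 to 17.1 CPM without and at 0.531 to 0.877 and 0.678 to 2.05 CPM with knockdown, short-term and long-term in each case.

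CCND1 and CDH6 belong to the genes with no 2-fold call on the second diagonal, with log2 fold changes there of -0.31 and 0.84. Among the lists, 5 interferon-stimulated genes fell on both diagonals at an adjusted p below 0.05, and 1 rose on the main and fell on the second diagonal. The median of that list on the second diagonal was -0.43. Of the sterol genes 4 rose on both, and of the HOX genes 6 rose on the main and fell on the second diagonal.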

How the data were processed

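RNA of HK-2 cells was measured in 12 libraries, 4 groups of 3, prepared with the TruSeq RNA v2 kit, which does not mark strand. The authors trimmed reads with fastp, mapped them with STAR, counted reads per gene with featureCounts and deposited raw counts and normalized values. The build was GRCh38 per the labels. Versions, annotation release and strand setting are not given in the sources used here. The deposited normalized values, a score made by dividing each count by 1 factor per library and rounding, were not used. The per-library count files the authors deposited differed from their table in 0 values.

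Of 58288 gene IDs, 55619 matched GENCODE 29 with the same version and 2361 with another. In R 4.3.3 with edgeR 4.0.16, filterByExpr kept 13959 genes (99.78% of counts), factors were TMM, and glmQLFit (robust, prior count 2) held all 12 libraries with a term per group. Two-sided p-values were adjusted over the genes tested with the Benjamini-Hochberg method. The SE is the log2 fold change divided by the square root of F. Rose and fell mean an adjusted p below 0.05. The bound for a gene with no counts uses a floor of 3 counts over the group. The fit was tested on simulated data.

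The comparison and the gene lists were chosen with earlier results of these data known, so counts over a list are descriptions. Same-numbered replicates deviated from their group means together on the second diagonal (correlations of 0.313 to 0.698, a pairing seen in the data and not stated in the labels) but not in the main comparison, and the fit has no replicate block. Genes were named by rule: FLCN, the 12 largest rises and falls among protein-coding genes with separate groups and a mean of at least 50 counts, up to 6 members of each list, 12 genes graphed in the study and the 5 largest changes in each direction over both diagonals; exceptions are marked or belong to the promoter, overlap and marker checks. The search for the E-box CACGTG (both strands) in promoters of the lysosomal list was void, since 28 of 46 genes (60.9%) had a promoter. Alternatives were RLE factors, DESeq2 1.42.0, other filters, fold limits and prior counts, the per-library files, a replicate block, only 6 libraries, leaving out each library and leaving out the shifted stretches. Some genes and a list are not reported here.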

Additional observations from a re-analysis of the deposited data

How the results depend on the processing

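Of the 152 genes called among the 181 named by rule 0 reversed direction under any alternative run, and 14 lost their call in 1 or more. Counts of calls over all genes stayed within 1.5 times of the reported values under RLE factors, DESeq2, no filter, the per-library files and only the 6 libraries, whereas several list counts of 5 or fewer moved further. With only genes averaging 10 CPM or more, at least 2-fold changes were 164 higher and 395 lower, 90 and 106 on the second diagonal, and 31 in the same and 63 in opposite directions on both, as fewer genes were tested. A 2.5-fold limit gave 216 higher, 150 and 244 on the second diagonal, and 78 and 92 on both, and a 1.5-fold limit gave 1157 and 1734, 636 and 803, and 290 and 417. Leaving out 1 library gave 1472 to 1880 genes higher and 2022 to 2372 lower. The replicate numbers do not pair the samples of the main comparison (correlations of deviations -0.155, 0.0654 and -0.219 for the 3 numbers). Between the groups of the second diagonal they deviated together (0.485, 0.313 and 0.698), as they did between long-term FLCN knockdown and each of these groups (0.25 to 0.709). With the replicate number as a block, 2530 genes rose and 2893 fell, and on the second diagonal 288 were at least 2-fold higher and 396 lower. The settings chosen after seeing the data, the default prior count of edgeR and leaving out the shifted stretches, gave 445 higher and 1023 lower, and 303 and 835, at least 2-fold. With 3 libraries per group and the totals given, genes of a few counts have wide intervals.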
